A study of Mus musculus with 6 samples.

Results

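The genes described here make, break down and sense prostaglandin E2. There were 9: Pla2g4a, which frees arachidonate from membranes; the cyclooxygenases Ptgs1 and Ptgs2; the prostaglandin E synthases Ptges, Ptges2 and Ptges3; Hpgd, which inactivates prostaglandins; and the receptors Ptger2 and Ptger4. Members were taken by symbol: a probe set counted where the platform annotation gave exactly 1 of these symbols. By that rule 7 of the 9 genes had 12 probe sets between them, out of 18193 genes with a probe set of 1 symbol in the whole table. Ptgs1 was named by 0 probe sets and was not analysed here. Both probe sets that name Ptges3 (2 in number) also name its pseudogene Ptges3-ps, so no value is given for Ptges3. The brightest probe set of each gene, by its mean over the 6 arrays, leads below.

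The RNA came from MVT1 cells, a metastatic mouse mammary tumour line tagged with green fluorescent protein (GFP), of which 3000000 were put into a vein of syngeneic FVB/N mice. The line derives from mammary tumours of mice with Myc and Vegf transgenes, so all groups share that origin. The groups were tumour cells sorted from lungs at 2 weeks after injection from mice given GW2580 daily by gavage at 160 mg/kg, at 2 weeks from mice given vehicle, and at 1 week from vehicle mice, with 2 arrays each. GW2580 inhibits the kinase of the CSF1 receptor, which macrophages and their precursors carry, and dosing began 1 week after injection. Each vehicle group came from 2 mice; the sources used here do not say how many mice gave the GW2580 arrays, and their spread may be technical. Between the vehicle groups, gavage differed as well as time, and these cannot be told apart.

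Prostaglandin E2 is made in 3 steps. A phospholipase frees arachidonate, a cyclooxygenase converts it to prostaglandin H2, and a terminal synthase isomerises that to prostaglandin E2. Ptgs2 (COX-2) is the inducible cyclooxygenase, an immediate-early gene with an unstable mRNA that inflammatory and growth signals switch on, whereas Ptgs1 is present in many resting tissues. Prostaglandin E2 acts through receptors of which Ptger2 and Ptger4 raise cyclic AMP, and in mammary tumours COX-2 has been studied for its part in growth, angiogenesis and spread to lung.

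Values are log2 RMA values, on which 1 unit is a doubling, and no level was set against that of another probe set. A gene was called at a Benjamini-Hochberg adjusted p under 0.05 in limma, fitted over all 6 arrays. The fit by gene took 1 probe set for each of 13090 genes with a mean of at least 4.97. A second limma fit took all 45037 non-control probe sets, and served for the members' other probe sets and for members below that filter. Arrays of a group correlated at 0.988 (GW2580), 0.992 (2-week vehicle) and 0.992 (1-week vehicle) over probe sets. The second 2-week vehicle array stood apart in its actin 3' minus 5' signal, 1.20 against 0.38 to 0.50 on the others, and the first 1-week array in its spiked-in BioB control, 10.21 against 8.89 to 9.14. Of 14 mammary epithelial markers, 10 lay above the filter, among them the keratins Krt8, at 13.52 to 13.82 on the 6 arrays, and Krt18, at 12.93 to 13.44. The other 4 lay below it, among them the epithelial cadherin Cdh1, at 3.49 to 3.99. Between 2-week and 1-week vehicle cells 9 of the 10 differences were below 0, with a median of -0.26 against 0.02 over all genes. In that comparison 1 of the 10 was called, lower, where 6.45% of all genes were called in either direction. The leukocyte gene Ptprc lay at 6.85 to 7.73 and Csf1r at 7.22 to 7.91, both above the filter in cells sorted for GFP. In such bulk RNA, fewer cells of a type and less RNA per cell cannot be told apart.

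Of the 7 members with a probe set of their own, Ptgs2 was the only one called. It fell 4.32-fold in 2-week vehicle tumour cells against 1-week vehicle cells, and in GW2580 cells its mean was at the 1-week level on 1 of its 2 probe sets and between the vehicle groups on the other. The gene lies at chr1:150100031-150108234 (GRCm38.p6). Its promoter, from 250 bases before to 50 after the RefSeq transcription start on the plus strand (chr1:150099781-150100080, GRCm38.p6), and that of Ptges on the minus strand (chr2:30903248-30903547), which encodes the synthase that acts after COX-2, are shown because the one gene moved and no call was made for the other. Capitals mark the matches to the motifs searched.
Ptgs2: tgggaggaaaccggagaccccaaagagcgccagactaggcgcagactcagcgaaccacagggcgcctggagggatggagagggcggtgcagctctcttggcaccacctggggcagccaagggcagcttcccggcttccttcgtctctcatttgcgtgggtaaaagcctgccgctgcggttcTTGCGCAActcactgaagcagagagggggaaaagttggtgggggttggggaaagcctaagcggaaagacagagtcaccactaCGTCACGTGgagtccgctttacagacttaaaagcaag
Ptges: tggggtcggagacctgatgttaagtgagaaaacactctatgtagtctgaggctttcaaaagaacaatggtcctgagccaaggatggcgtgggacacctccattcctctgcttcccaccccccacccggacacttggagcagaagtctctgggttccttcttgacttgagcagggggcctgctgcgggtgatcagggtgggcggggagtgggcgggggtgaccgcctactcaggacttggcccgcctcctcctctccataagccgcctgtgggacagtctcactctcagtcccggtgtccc
In the Ptgs2 window, counted from the start site as +1, the letters TTGCGCAA at -69 to -62 match the C/EBP motif TTGCNNAA, CGTCA at 14 to 18 matches the core of the cyclic AMP response element, TGACG, on the minus strand, and CACGTG at 17 to 22 is an E-box that overlaps it. On both strands, 10.8% of 32851 RefSeq mouse promoter windows of 300 bases hold the C/EBP motif, 20.8% that core and 7.15% the E-box. The Ptges window held 0 matches to these motifs. It belongs to a RefSeq start that lies inside the gene's span of chr2:30889471-30931020, not at the outer end of that span. Neither window held the AP-1 motif TGANTCA (7.81% of windows), the EGR motif GCGNGGGCG (5.55%), TATAAA (13.6%) or an NF-kB motif (8.46%). Ptges2, not printed, had 1 E-box in its window, at -77 to -72. Sites further from the start were not searched, so an absence holds for the window alone. These are matches of letters and no binding was measured.

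On the leading Ptgs2 probe set, 1417262_at, the arrays read 9.06 and 7.75 in GW2580 cells, 6.53 and 7.15 in 2-week vehicle cells and 9.08 and 8.82 in 1-week vehicle cells. Both 2-week vehicle arrays lay below every other array. The first GW2580 array lay among the 1-week arrays, and the second lay above the higher 2-week vehicle array by about as much as the 2-week vehicle arrays differed from each other. Group means were 8.40 ± 0.93 in GW2580 cells, 6.84 ± 0.43 in 2-week vehicle cells and 8.95 ± 0.19 in 1-week vehicle cells (SD, n = 2 each).

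On the second Ptgs2 probe set, 1417263_at, the arrays read 7.74 and 7.58 in GW2580 cells, 5.37 and 5.84 in 2-week vehicle cells and 7.80 and 7.53 in 1-week vehicle cells. Here the GW2580 arrays lay between the 1-week arrays, and the 2-week vehicle arrays lay apart from both groups. Means were 7.66 ± 0.11 in GW2580 cells, 5.61 ± 0.33 in 2-week vehicle cells and 7.66 ± 0.19 in 1-week vehicle cells (SD, n = 2 each). Across the 6 arrays the probe sets correlated at 0.912, a value that carries the group differences themselves. They parted most on the second GW2580 array.

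**Figure D1:**
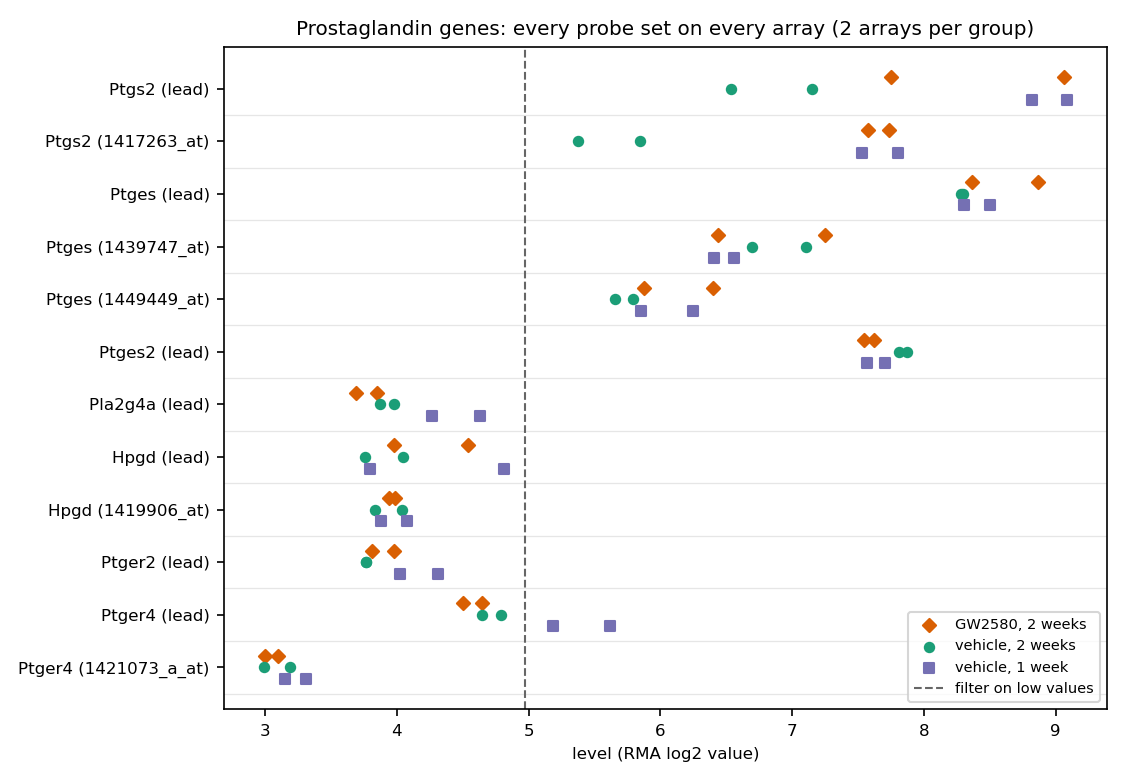
Each row is a probe set of a prostaglandin gene, and each point an array, placed by its log2 RMA value (horizontal axis). Diamonds are GW2580 at 2 weeks, circles vehicle at 2 weeks, squares vehicle at 1 week, and the dashed line is the filter at 4.97. On both Ptgs2 rows the circles lie left of all other points, while the rows of Pla2g4a, Hpgd, Ptger2 and the second Ptger4 probe set lie left of the dashed line.

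Between 2-week and 1-week vehicle cells, Ptgs2 fell by 2.11 log2 units on the leading probe set (SE 0.39, 95% interval -3.00 to -1.22, limma adjusted p = 0.0276). Its difference was the 9th lowest of the 13090 genes tested. Of the 3 members tested in that fit it was the 1 called, where 6.45% of all genes were called in either direction. On the second probe set it fell by 2.06 (SE 0.18, a 4.16-fold fall, adjusted p = 0.0129 in the limma fit of all probe sets), where 2.39% of probe sets were called. Each comparison rested on 4 arrays, and the lead's call was lost when any vehicle array was left out. The difference was then -1.80 without the first 2-week array (adjusted p = 0.120), -2.42 without the second (adjusted p = 0.0572), -1.98 without the first 1-week array (adjusted p = 0.225) and -2.24 without the second (adjusted p = 0.0717), all in limma. The second probe set lost its call without the first (-1.92, limma adjusted p = 0.134) or the second 1-week array (-2.19, limma adjusted p = 0.0525).

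Between GW2580 and vehicle cells at 2 weeks, the leading Ptgs2 probe set was 1.56 higher (SE 0.39, 95% interval 0.67 to 2.46, 2.96-fold), which did not pass (limma adjusted p = 0.110). In this comparison 0.367% of genes were called, and 0 of the 3 members tested. Its unadjusted p was 0.00374, a level under 0.05 that 18% of the tested genes reached. Ptgs2 had the 10th highest difference of the 13090 genes. The second probe set was 2.05 higher in GW2580 cells (SE 0.18, 95% interval 1.62 to 2.47, 4.14-fold) and was called in the limma fit of all probe sets (adjusted p = 0.0374), where 0.429% of probe sets were called. It had the 10th highest difference of 45037. The lead was not called in that fit either (limma adjusted p = 0.125).

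Single arrays decided these inhibitor calls. Without the second GW2580 array the lead was 2.22 higher and was called (limma adjusted p = 0.0429), and without the first it was 0.91 higher (adjusted p = 0.292). For the second probe set, the call was lost without the first GW2580 array (1.97, limma adjusted p = 0.186), without the second 2-week vehicle array (2.28, adjusted p = 0.0717) and without either 1-week array (2.05, adjusted p = 0.106 each). Over all 13 alternatives the size ranged from 1.81 to 2.28. Several of these, such as leaving out a 1-week array, cannot change this difference of group means. The vehicle arrays at 2 weeks enter both comparisons, so the fall with time and the higher value under GW2580 are not independent of each other.

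**Figure D2:**
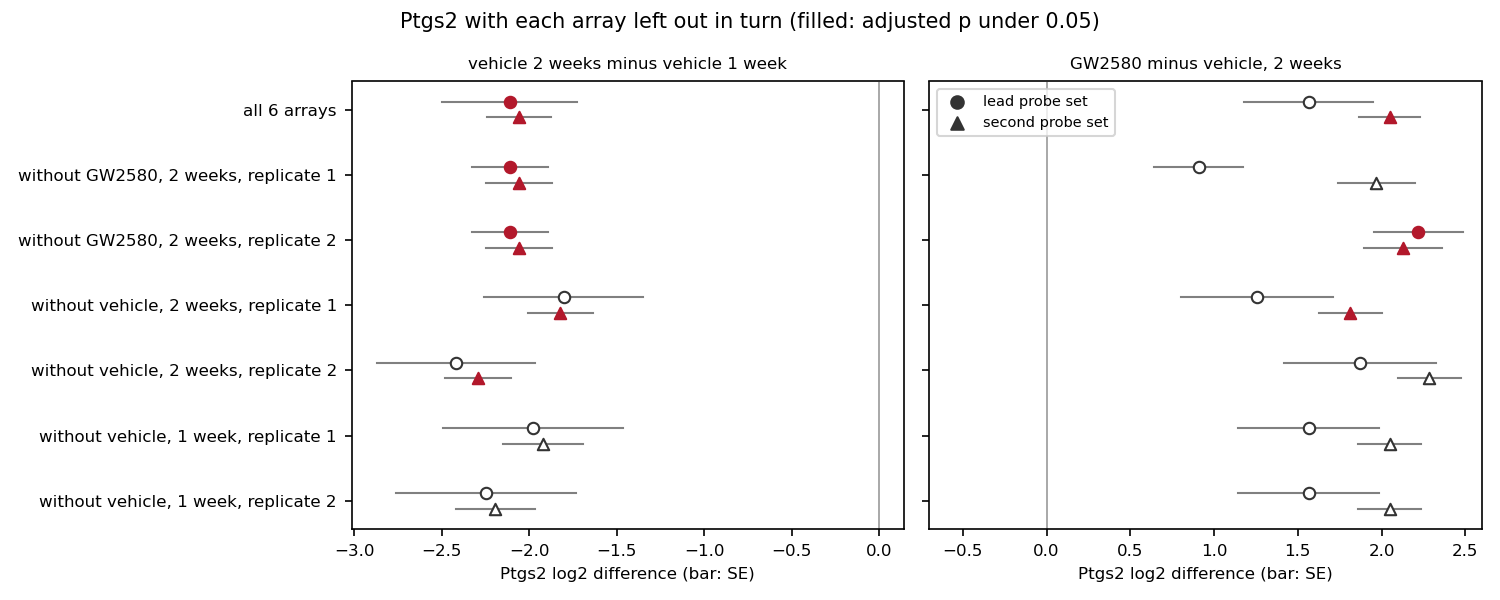
Ptgs2 log2 differences (horizontal axis, bars are SE) with all 6 arrays and with each array left out in turn (rows), for 2-week minus 1-week vehicle on the left and GW2580 minus vehicle at 2 weeks on the right. Circles are the leading and triangles the second probe set, filled where the adjusted p was under 0.05. All values stay on their side of 0, and the lead under GW2580 spans 0.91 to 2.22.

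Against 1-week vehicle cells, GW2580 cells had Ptgs2 values 0.55 lower on the lead (95% interval -1.44 to 0.35, limma adjusted p = 0.523) and 0.01 lower on the second probe set (95% interval -0.43 to 0.42, limma adjusted p = 0.993). Each interval leaves out a difference as large as the estimate with time on the same probe set (-2.11 and -2.06). The lead's interval does not settle a difference of up to 1.44, and the interval for its fall with time reaches -1.22. In this comparison 0.512% of genes, 17% at an unadjusted p under 0.05, and 0.0799% of all probe sets were called.

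Arachidonate release by cytosolic phospholipase A2 was weakly measured. Pla2g4a (chr1:149829618-149961290) read 3.85 and 3.69 in GW2580 cells, 3.98 and 3.87 in 2-week vehicle cells and 4.63 and 4.27 in 1-week vehicle cells, all below the filter. Both 2-week groups lay under the 1-week arrays. The difference was -0.52 between vehicle groups (SE 0.16, unadjusted p = 0.0101, adjusted p = 0.133 in limma over all probe sets) and -0.15 between GW2580 and vehicle at 2 weeks (limma adjusted p = 0.703), so neither passed. Against 1-week cells the GW2580 value was -0.68 (SE 0.16, limma adjusted p = 0.179).

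The terminal synthases were well measured and were not called. Ptges (chr2:30889471-30931020), the inducible microsomal enzyme that acts with COX-2, read 8.37 and 8.86 in GW2580 cells, 8.30 and 8.28 in 2-week vehicle cells and 8.30 and 8.50 in 1-week vehicle cells on its lead, 1449450_at. The higher GW2580 array lay above all others, and the lower one lay inside the range of the 1-week arrays. Its difference was -0.11 between the vehicle groups (95% interval -0.52 to 0.30, limma adjusted p = 0.769) and 0.33 between GW2580 and vehicle (95% interval -0.08 to 0.74, limma adjusted p = 0.377). The interval for time leaves out a fall of the size seen for Ptgs2.

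The other Ptges probe sets differed among themselves in sign. On 1439747_at the arrays read 6.44 and 7.25 in GW2580 cells, 6.70 and 7.11 in 2-week vehicle cells and 6.41 and 6.56 in 1-week vehicle cells, a difference of 0.42 with time (limma adjusted p = 0.498) and of -0.06 with GW2580 (limma adjusted p = 0.942). On 1449449_at they read 5.87 and 6.40 in GW2580 cells, 5.79 and 5.66 in 2-week vehicle cells and 5.85 and 6.25 in 1-week vehicle cells, a difference of -0.33 with time (limma adjusted p = 0.504) and of 0.41 with GW2580 (limma adjusted p = 0.397). No direction is therefore given for Ptges.

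Ptges2 (chr2:32395890-32402740), a membrane-associated synthase found in many tissues, read 7.54 and 7.62 in GW2580 cells, 7.88 and 7.81 in 2-week vehicle cells and 7.71 and 7.57 in 1-week vehicle cells. The 2-week vehicle arrays were the highest by a small margin, whereas for Ptgs2 they were the lowest. Neither the difference of 0.20 with time (95% interval -0.08 to 0.49, limma adjusted p = 0.377) nor that of -0.26 with GW2580 (95% interval -0.55 to 0.03, limma adjusted p = 0.319) passed.

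Hpgd (chr8:56294552-56321046), the dehydrogenase that starts prostaglandin breakdown, lay below the filter on both its probe sets. On 1419905_s_at it read 4.54 and 3.98 in GW2580 cells, 3.76 and 4.05 in 2-week vehicle cells and 4.81 and 3.79 in 1-week vehicle cells, with the groups overlapping. Its differences were -0.40 with time and 0.36 with GW2580 (limma adjusted p = 0.638 and 0.663), and those on 1419906_at were -0.04 and 0.03. Left without the first 1-week array, the difference with time on the lead was 0.11, of the opposite sign.

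The receptors were also dim. Ptger4 (chr15:5233399-5244187), which encodes the EP4 receptor, had a mean of 4.90, just under the filter. It read 4.64 and 4.51 in GW2580 cells, 4.64 and 4.79 in 2-week vehicle cells and 5.19 and 5.62 in 1-week vehicle cells, so the 1-week arrays lay above the other 4. The differences were -0.69 between vehicle groups (SE 0.17, unadjusted p = 0.00365, adjusted p = 0.0815 in limma over all probe sets), -0.14 between GW2580 and vehicle at 2 weeks (limma adjusted p = 0.746) and -0.83 between GW2580 and 1-week cells (SE 0.17, limma adjusted p = 0.149). None passed. Its other probe set, 1421073_a_at, lay between 2.99 and 3.31 on all arrays and had differences of -0.14, -0.05 and -0.18 in the same order.

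Ptger2 (chr14:44988111-45003820), which encodes EP2, read 3.98 and 3.81 in GW2580 cells, 3.77 and 3.77 in 2-week vehicle cells and 4.31 and 4.03 in 1-week vehicle cells. Again the 1-week arrays were the highest. The differences of -0.40 with time (SE 0.14, unadjusted p = 0.0222, limma adjusted p = 0.199), 0.13 with GW2580 (limma adjusted p = 0.732) and -0.28 against 1-week cells (limma adjusted p = 0.531) did not pass. On the leads of Pla2g4a, Ptger2 and Ptger4 both 1-week arrays thus lay above the other 4, and the difference between GW2580 and 2-week vehicle cells was -0.15 to 0.13. These leads lay below the filter and none was called, and the share of all probe sets with this order was not counted. The second Ptger4 probe set did not have it: the first 2-week vehicle array read 3.19 and the second 1-week array 3.15.

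**Figure D3:**
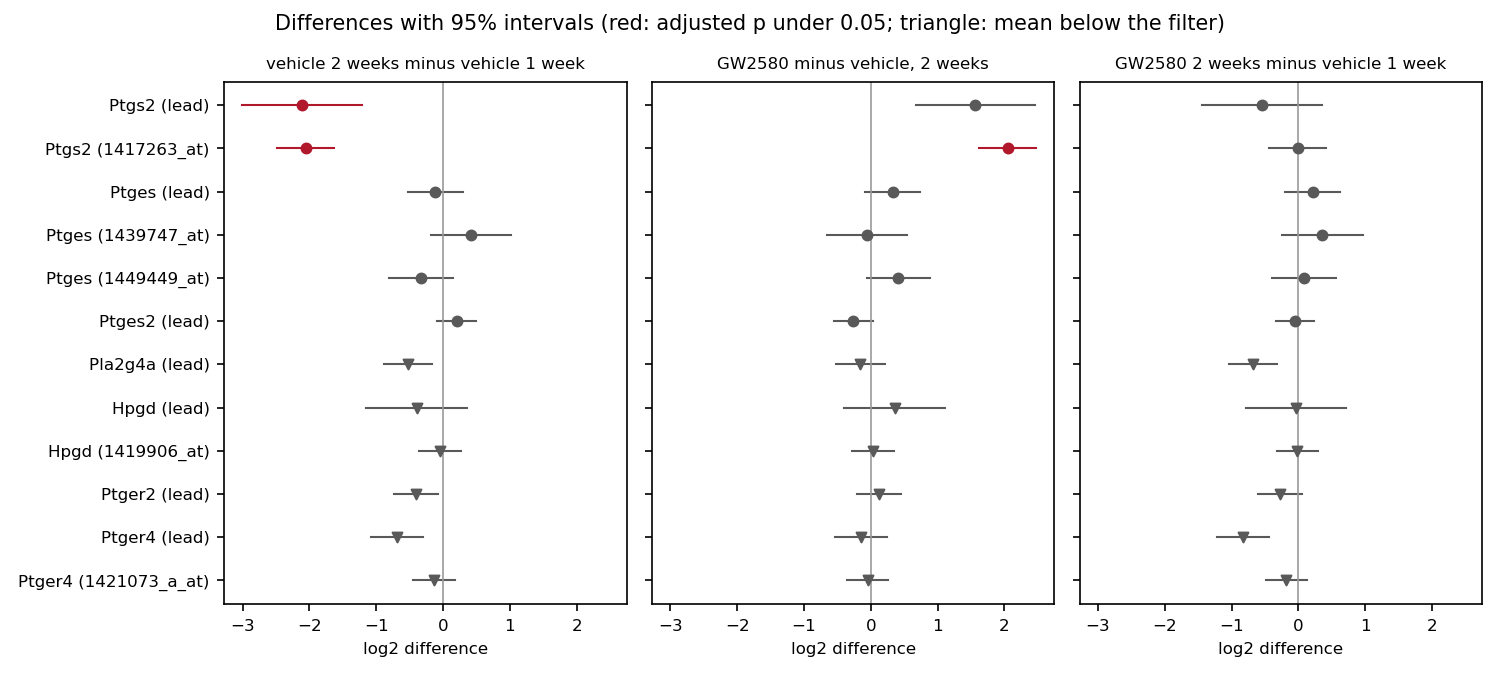
Log2 differences (horizontal axis, points) with 95% intervals (bars) for each probe set (rows) in the 3 comparisons (panels). Red marks an adjusted p under 0.05 and triangles mark probe sets with a mean below the filter. Only the Ptgs2 rows are red: both for 2-week against 1-week vehicle, and the second probe set, at 2.05, for GW2580 against vehicle.

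Of 53 other genes listed for prostanoid and arachidonate metabolism, 51 had a probe set and 39 passed the filter. Between 2-week and 1-week vehicle cells 1 rose and 1 fell, 37 were not called, and their median difference was 0.05 against 0.02 over all genes tested; 6.45% of all genes were called. At an unadjusted p under 0.05 were 6 of the 39, against 23.6% of all genes. Between GW2580 and vehicle cells limma called 0 of 39 (0.367% of all genes), with 5 at an unadjusted p under 0.05 (18% of all genes) and a median of -0.02 against -0.05 over all genes. Between GW2580 and 1-week cells it called 0 (0.512% of all genes), with 7 at an unadjusted p under 0.05 (17% of all genes) and a median of 0.00 against -0.02 over all genes.

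Among 7 other prostanoid synthases tested, Ptgds, the lipocalin-type prostaglandin D synthase, was called. It read 7.79 and 8.48 in GW2580 cells, 8.06 and 8.02 in 2-week vehicle cells and 6.98 and 7.05 in 1-week vehicle cells, so all 4 arrays at 2 weeks lay above those at 1 week. It rose 2.03-fold with time (1.02, SE 0.21, limma adjusted p = 0.0343) and differed by 0.09 between GW2580 and vehicle at 2 weeks (limma adjusted p = 0.852). Its other probe set was 1.67 higher with time (limma adjusted p = 0.0574 over all probe sets). Unlike Ptgs2, Ptgds was also 1.12 higher in GW2580 cells than in 1-week cells, short of the threshold (limma adjusted p = 0.0684).

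Ptgis, the prostacyclin synthase, read 7.99 and 6.61 in GW2580 cells, 6.71 and 6.52 in 2-week vehicle cells and 9.60 and 7.68 in 1-week vehicle cells. The first array of the GW2580 and 1-week groups was far above the second, and the difference of -2.02 with time (SE 0.61) did not pass (limma adjusted p = 0.0888). Without the second 1-week array it was -2.98 and called (limma adjusted p = 0.0397), and without the first it was -1.06 (limma adjusted p = 0.460); with GW2580 it was 0.69 (limma adjusted p = 0.587). Fibroblast and smooth muscle markers were highest on the same arrays, as a mean over all 12, of which 9 lay above the filter. That mean was 6.71 and 6.16 in GW2580 cells, 6.38 and 6.40 in 2-week vehicle cells and 7.27 and 6.56 in 1-week vehicle cells. The collagen gene Col3a1 read 10.90 on the first GW2580 array and 11.68 on the first 1-week array against 8.98 to 10.51 on the others. The part of such cells in the Ptgis values was not tested. Akr1b8, an aldo-keto reductase, was 0.41 lower with GW2580 (limma adjusted p = 0.149) and 0.31 lower in GW2580 than in 1-week cells (limma adjusted p = 0.251).

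Among 5 genes of prostanoid breakdown and transport, Ptgr1, which reduces 15-keto-prostaglandins and leukotriene B4, fell with time. It read 7.30 and 6.91 in GW2580 cells, 6.52 and 6.91 in 2-week vehicle cells and 7.69 and 7.71 in 1-week vehicle cells, a 1.98-fold fall between vehicle groups (-0.98, SE 0.18, limma adjusted p = 0.0285). The GW2580 arrays lay between the vehicle groups, 0.39 above 2-week vehicle (limma adjusted p = 0.309) and 0.59 below 1-week cells (-0.59, limma adjusted p = 0.158). Cbr3, a carbonyl reductase, differed by -0.46 with GW2580 (limma adjusted p = 0.278), and Slco2a1, the prostaglandin uptake transporter, by -0.36 between GW2580 and 1-week cells (limma adjusted p = 0.256).

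Of 14 phospholipase and related genes for arachidonate release, limma called 0 in each comparison. Pla2g12a, a secreted phospholipase, read 8.36 and 8.999 in GW2580 cells, 9.42 and 9.34 in 2-week vehicle cells and 8.83 and 8.63 in 1-week vehicle cells, with the highest values in 2-week vehicle cells. It differed by 0.65 with time (limma adjusted p = 0.101) and by -0.70 with GW2580 (limma adjusted p = 0.145). Plaat3, a phospholipid acyltransferase of adipose tissue, read 10.28 and 9.02 in GW2580 cells, 8.48 and 9.23 in 2-week vehicle cells and 8.35 and 7.29 in 1-week vehicle cells, with differences of 1.04 with time (limma adjusted p = 0.229) and 1.83 against 1-week cells (limma adjusted p = 0.110). Its spread within each group was over 0.5 (SD). Plaa, a phospholipase activator, differed by -0.42 with GW2580 (limma adjusted p = 0.172), and Pla2g7, which hydrolyses platelet-activating factor, by 0.49 between GW2580 and 1-week cells (limma adjusted p = 0.294).

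Of 6 other prostanoid receptor genes tested, limma called 0. Those with the smallest p were Pparg, the nuclear receptor that some prostaglandin D2 products bind, which differed by 0.38 with time and -0.22 with GW2580 (limma adjusted p = 0.149 and 0.443), and Ptgfrn, a protein that associates with the prostaglandin F receptor, which differed by 0.30 and -0.30 (limma adjusted p = 0.367 and 0.410). The thromboxane receptor Tbxa2r differed by -0.16 between GW2580 and 1-week cells (limma adjusted p = 0.641), and Pparg by 0.16 (limma adjusted p = 0.619). Ptger3, Ptgfr and Ptgir lay below the filter.

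In the lipoxygenase branch, which turns arachidonate into leukotrienes, limma called 0 of 7 genes in each comparison. Ltc4s, the leukotriene C4 synthase, read 10.29 and 9.52 in GW2580 cells, 9.01 and 8.63 in 2-week vehicle cells and 9.20 and 9.32 in 1-week vehicle cells. Both GW2580 arrays lay above all vehicle arrays, 1.08 over 2-week vehicle (SE 0.24, limma adjusted p = 0.0919). Alox5ap, the protein that presents arachidonate to 5-lipoxygenase, read 7.32 and 8.15 in GW2580 cells, 8.43 and 8.60 in 2-week vehicle cells and 7.82 and 8.14 in 1-week vehicle cells, a difference of -0.78 with GW2580 (SE 0.25, limma adjusted p = 0.177) and 0.53 with time (limma adjusted p = 0.257). Without the second GW2580 array, Ltc4s (1.46, limma adjusted p = 0.0429), Alox5ap (-1.19, limma adjusted p = 0.0451) and Pla2g12a (-1.01, limma adjusted p = 0.0451) were called. Ltc4s against 1-week cells (0.65, limma adjusted p = 0.234), and with time (-0.44, limma adjusted p = 0.333), and the leukotriene B4 receptor Ltb4r1 against 1-week cells (-0.39, limma adjusted p = 0.287) did not pass.

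**Figure D4:**
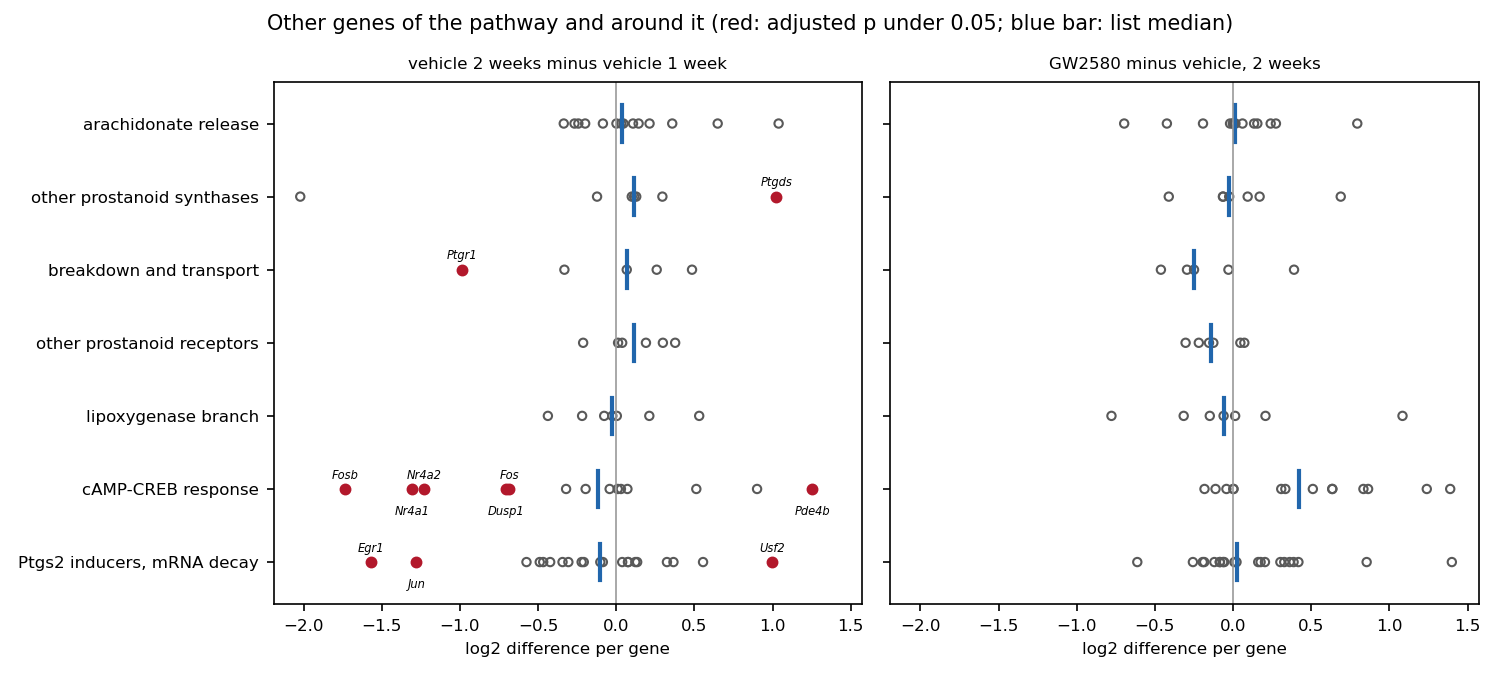
Log2 difference of each gene tested (points, horizontal axis) in the lists around the prostaglandin genes (rows), for 2-week minus 1-week vehicle on the left and GW2580 minus vehicle at 2 weeks on the right. Red points, with their names, had an adjusted p under 0.05 and blue bars are list medians. Ptgds at 1.02 and Ptgr1 at -0.98 are the red points of the pathway rows, and the right panel has none.

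Genes that act around Ptgs2 were read against the same 6.45% of all genes called with time. Of 14 genes tested that respond to cyclic AMP and the factor CREB, which EP2 and EP4 signal through, 5 fell and 1 rose between 2-week and 1-week vehicle cells, 8 were not called, and the median was -0.12 against 0.02 over all genes. The orphan nuclear receptor Nr4a2 read 8.58 and 7.98 in GW2580 cells, 7.03 and 7.05 in 2-week vehicle cells and 8.24 and 8.29 in 1-week vehicle cells, with the 2-week vehicle arrays apart from both groups. It fell by 1.23 (SE 0.19, limma adjusted p = 0.0185). Of its 5 other probe sets, 1455034_at fell by 1.21 and 1450750_a_at by 0.90 (limma adjusted p = 0.0267 and 0.0391 over all probe sets). Those not called were 1450749_a_at (-0.36), 1433422_at (-0.075) and the dim 1433423_at (0.36), with limma adjusted p = 0.218, 0.882 and 0.254. Its relative Nr4a1 fell by 1.30 (limma adjusted p = 0.0416), and the AP-1 genes Fosb and Fos fell by 1.73 and 0.68 (limma adjusted p = 0.0357 and 0.0416). Dusp1, a phosphatase of MAP kinases, fell by 0.70 (limma adjusted p = 0.0309).

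Pde4b, a phosphodiesterase that degrades cyclic AMP, rose 2.39-fold with time on its lead (limma adjusted p = 0.0102). It was 1.26 higher in GW2580 than in 1-week cells (limma adjusted p = 0.0144), the 1 called of 14 in that comparison, where 0.512% of all genes were called. It read 6.60 and 6.78 in GW2580 cells, 6.71 and 6.67 in 2-week vehicle cells and 5.53 and 5.33 in 1-week vehicle cells. Its 5 other probe sets differed by at most 0.24 with time and were not called, so its direction rests on the lead. With GW2580, limma called 0 of the 14 genes (0.367% of all genes), and 7 had an unadjusted p under 0.05 (18% of all genes). In this comparison 11 differences were above 0 and the median was 0.42 against -0.05 over all genes. Nr4a2 was nearest to a call, 1.24 higher (SE 0.19, limma adjusted p = 0.0504); without the second GW2580 array it was 1.54 higher and called (limma adjusted p = 0.0277). Of its 5 other probe sets, 1450750_a_at was 1.07 higher and called (limma adjusted p = 0.0493 over all probe sets) and 1455034_at was 1.22 higher and not called (limma adjusted p = 0.0502). The others were not called, with 0.21 on 1450749_a_at, 0.056 on 1433422_at and -0.44 on the dim 1433423_at (limma adjusted p = 0.505, 0.902 and 0.208). Sik1, a kinase induced by cyclic AMP, was 0.86 higher (limma adjusted p = 0.0790).

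Of 21 genes tested that induce Ptgs2 or govern the stability of its mRNA, 2 fell and 1 rose with time, 18 were not called and the median was -0.10. The transcription factor Egr1 read 12.82 and 12.21 in GW2580 cells, 10.73 and 11.50 in 2-week vehicle cells and 12.63 and 12.74 in 1-week vehicle cells, so the 2-week vehicle arrays were the lowest. It fell by 1.57 with time (SE 0.27, limma adjusted p = 0.0243) and was 1.40 higher with GW2580 (limma adjusted p = 0.0783). Jun, the AP-1 partner of the Fos proteins, read 13.01 and 12.44 in GW2580 cells, 11.76 and 11.99 in 2-week vehicle cells and 13.10 and 13.20 in 1-week vehicle cells, and fell by 1.28 with time (limma adjusted p = 0.0168). Usf2, a factor that binds E-boxes, rose by 0.99 on its lead (limma adjusted p = 0.0102), whereas its other probe set differed by -0.09; with GW2580 the lead differed by -0.61 (limma adjusted p = 0.0790).

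With GW2580, limma called 0 of the 21 genes (0.367% of all genes), 4 had an unadjusted p under 0.05 (18% of all genes), and the median was 0.02. Against 1-week cells it called 0 (0.512% of all genes), with 4 at an unadjusted p under 0.05 (17% of all genes). Of these 4, Celf2, an RNA-binding protein that binds Ptgs2 mRNA, had -0.55 (limma adjusted p = 0.130) and the interleukin 1 receptor subunit Il1rap -0.40 (limma adjusted p = 0.143). With time, the dim Celf2 probe set 1451154_a_at differed by -0.80 and was called (limma adjusted p = 0.0280 over all probe sets). That call was not checked with arrays left out. Not called with time were 1450069_a_at (-0.86, limma adjusted p = 0.0735), the Celf2 lead (-0.49), 1444533_at (-0.087), 1439777_at (0.019), 1444152_at (0.098) and 1451155_at (0.064). The cytokine genes Il1a and Il6 lay below the filter. None of the calls with time for these genes and for Ptgds and Ptgr1 survived the loss of the first 1-week array, without which 0 of 13090 genes were called. Pde4b kept its call without each of the other 3 vehicle arrays. Usf2 lost it without the first 2-week array (limma adjusted p = 0.0594). Fosb, Jun, Egr1 and Ptgr1 kept theirs without the second 2-week array alone, and Nr4a1, Nr4a2, Fos, Dusp1 and Ptgds lost theirs whichever vehicle array was left out. Pde4b between GW2580 and 1-week cells lost its call without the second GW2580 array (limma adjusted p = 0.110) and without the first (0.103) or second 1-week array (0.0675).

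The 5 genes that followed the leading Ptgs2 probe set most closely over the 6 arrays were Nrp1 (Pearson r = 0.999), Mboat1 (0.994), Adcy7 (0.992), Ier3 (0.990) and Rhox9 (0.987). With the second Ptgs2 probe set the same genes had r between 0.905 and 0.922. At r of 0.95 or more there were 73 genes for the lead, of which 11 also reached it with the second. The points share the 3 groups, so these values are descriptions. Nrp1, a co-receptor for VEGF and semaphorins, read 7.68 and 7.21 in GW2580 cells, 6.75 and 6.93 in 2-week vehicle cells and 7.72 and 7.60 in 1-week vehicle cells. Ier3, an immediate-early gene, read 12.83 and 12.14 in GW2580 cells, 11.49 and 11.68 in 2-week vehicle cells and 13.00 and 12.90 in 1-week vehicle cells, and Adcy7, an adenylyl cyclase that makes cyclic AMP, read 11.49 and 11.11 in GW2580 cells, 10.72 and 10.87 in 2-week vehicle cells and 11.47 and 11.50 in 1-week vehicle cells.

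**Figure D5:**
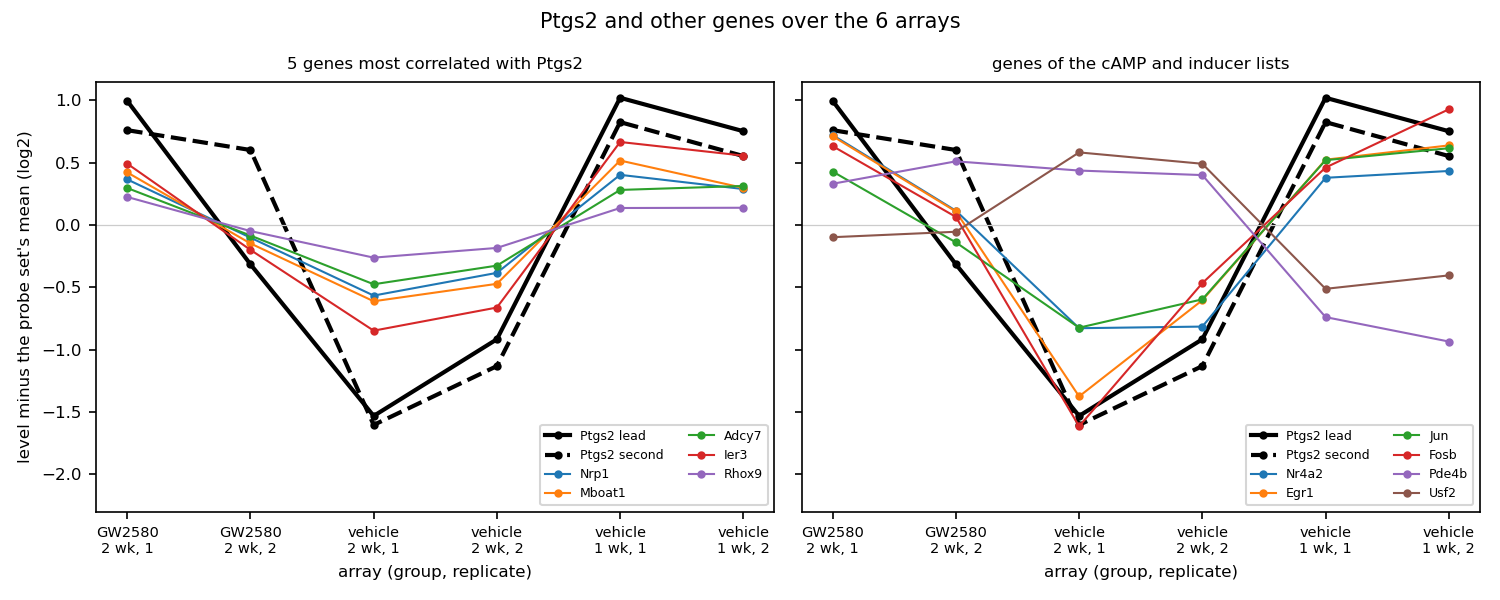
Level of each probe set minus its own mean over the 6 arrays (vertical axis, log2) by array (horizontal axis: GW2580 at 2 weeks, vehicle at 2 weeks, vehicle at 1 week, replicates 1 and 2). Black lines are the Ptgs2 probe sets, coloured lines on the left the 5 most correlated genes and on the right genes of the cyclic AMP and inducer lists. All left-hand lines and those of Nr4a2, Egr1, Jun and Fosb dip on the 2-week vehicle arrays, where Usf2 is highest, and Pde4b is low at 1 week.

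Markers of other cells were set beside Ptgs2, which macrophages and fibroblasts can also express. The mean over 18 macrophage and monocyte markers, 15 of them above the filter, was 6.24 and 6.53 in GW2580 cells. It was 6.44 and 6.56 in 2-week vehicle cells and 6.50 and 6.49 in 1-week vehicle cells. Of the 15, limma called 0 with time, 0 with GW2580 and 0 against 1-week cells (6.45%, 0.367% and 0.512% of all genes). In that order 3, 3 and 2 had an unadjusted p under 0.05, against 23.6%, 18% and 17% of all genes. The fibroblast and smooth muscle mean, given above with Ptgis, was highest on the first GW2580 and first 1-week arrays, where the leading Ptgs2 probe set was also highest. Over the 9 of these markers above the filter, the median difference was -0.55 with time (1 above 0, 8 below). It was 0.03 with GW2580 (5 above, 4 below) and -0.68 against 1-week cells (0 above, 9 below). In that order Ptgs2 differed by -2.11, 1.56 and -0.55 on the lead and by -2.06, 2.05 and -0.01 on the second probe set. Of the 9 markers limma called 0 in each comparison. At an unadjusted p under 0.05 were 4, 1 and 5, against 23.6%, 18% and 17% of all genes. Lung epithelial markers, 13 of 13 above the filter, had means of 7.03 and 6.47 in GW2580 cells, 7.02 and 7.01 in 2-week vehicle cells and 7.27 and 7.05 in 1-week vehicle cells. With GW2580, 2 of the 13 fell, against 0.367% of all genes called in either direction, 11 were not called and 4 differences were above 0. The median difference was -0.43 against -0.05 over all genes, and 8 of the 13 had an unadjusted limma p under 0.05, against 18% of all genes. The surfactant genes Sftpd and Sftpa1 fell by 1.12 and 1.78 (limma adjusted p = 0.0445 and 0.0489). Both calls were lost without the first GW2580 array, without the second 2-week vehicle array and without either 1-week array. They were also lost with the 4 arrays compared alone. With time, Sftpd rose by 0.89 (limma adjusted p = 0.0251), a call lost without the first 1-week array, and the other 12 were not called, against 6.45% of all genes. The part of these cells in the Ptgs2 values was not tested.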

How the data were processed

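Gene expression in sorted tumour cells was measured on Affymetrix whole-genome mouse arrays, with biotinylated cRNA from 2 µg of total RNA per array, per the labels' protocols. The authors deposited log2 values of 45101 probe sets on 6 arrays; the submitters' processing notes name RMA, with no version. RMA quantile-normalises arrays, which hides any change common to most genes. Precision is limited by the number of arrays.

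After removal of 64 control probe sets, 34945 of the other 45037 had 1 symbol in the platform annotation, and the brightest probe set per gene was kept for 18193 genes, of which 13090 had a mean of at least 4.97, the 40th percentile. limma 3.58.1 in R 4.3.3 fitted 3 group means over 6 arrays (eBayes without trend, 3 residual and 4.97 prior degrees of freedom), and p-values were adjusted by Benjamini-Hochberg over all features of a comparison. With 2 arrays a group, the smallest two-sided permutation p is 0.333, and none was run. The limma steps were tested on simulated data. Alternatives were other filters, probe sets, scalings and fits, and leaving out each array.

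The members and gene lists were chosen with earlier results of these data known. Named were all members, in each list up to 6 called genes (by p), or its 2 genes of smallest p if it had no call, and the 5 genes most correlated with Ptgs2; other genes in the text (Col3a1, Krt8, Krt18, Cdh1, Ptprc, Csf1r, Sftpd, Sftpa1, and receptors and cytokines below the filter) are cell markers or untested list members named after their values were seen. Gene positions and promoters are RefSeq's for GRCm38.p6.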

Additional observations from a re-analysis of the deposited data

How the results depend on the processing

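Only 2 arrays stood in each group. Leaving out each array in turn, the number of prostaglandin genes called between 2-week and 1-week vehicle cells (1 with all arrays) was 0 to 1, and between GW2580 and vehicle cells (0 with all arrays) 0 to 1; with all probe sets tested this second count was 1. Of the other pathway genes, 0 to 3 were called with time (2 with all arrays, and 1 with all probe sets tested), 0 to 3 with GW2580 and 0 to 1 between GW2580 and 1-week cells. Over 17 alternatives the difference of the leading Ptgs2 probe set with time ranged from -2.42 to -1.80 and was called in 13. It was not called in any fit that left out a vehicle array. With GW2580 the lead's difference ranged from 0.91 to 2.22 and was called in 1. Several alternatives, such as leaving out an array of the group not compared, cannot change a difference of group means. The second probe set, over 13 alternatives, was called in 11 with time and in 7 with GW2580. Fitting the 4 arrays compared alone ended that second call (2.05, limma adjusted p = 0.106).

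The labels number replicates 1 and 2 in each group without saying that a number marks a shared mouse or day. Deviations of same-numbered arrays correlated at 0.01 (GW2580 with 2-week vehicle), 0.29 (GW2580 with 1-week vehicle) and 0.00 (2-week with 1-week vehicle), so the numbers were not taken to pair the arrays throughout, although the first GW2580 and 1-week arrays deviated together. With the replicate number as a block, 1223 genes were called with time (844 without it), 154 with GW2580 (48) and 182 between GW2580 and 1-week cells (67); the prostaglandin genes called were 1, 0 and 0, the other pathway genes 3, 0 and 1, and the second Ptgs2 probe set missed the threshold with GW2580 (2.05, limma adjusted p = 0.0502).

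Some differences that were not called changed sign, and the cause was not tested. Not all were near 0: with all arrays, the leading Ptgs2 probe set had -0.55 between GW2580 and 1-week cells, and Hpgd -0.40 between vehicle groups. Between GW2580 and 1-week cells, with each array left out in turn, the leading Ptgs2 probe set lay between -1.20 and 0.11, the second between -0.14 and 0.13 (0.071 without the second GW2580 array), Ptges between -0.036 and 0.46, Ptges2 between -0.13 and 0.014, and Hpgd between -0.55 and 0.47 (0.24 without the second GW2580 array). Hpgd between vehicle groups lay between -0.91 and 0.11. Ptges on 1439747_at gave 0.42 with time and -0.060 with GW2580. Over all genes, calls with time numbered 0 without the first 1-week array, 115 and 157 without the first or the second 2-week vehicle array, 413 without the second 1-week array and 1316 with array weights; calls with GW2580 numbered 167 without the second GW2580 array, 81 with the robust fit, 75 with a trend, 74 with no filter, 15 with array weights, 6 without the first 2-week vehicle array, and 0 with the 4 arrays alone or without the first GW2580, the second 2-week vehicle or either 1-week array. Between GW2580 and 1-week cells, leaving out each array in turn gave 0 to 169 calls, and the 4 arrays alone gave 24.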
